A study of Mus musculus with 12 samples.

Results

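Transcript levels of 8 interferon-inducible GTPase genes, Irgm1, Irgm2, Igtp, Iigp1, Tgtp1, Tgtp2, Ifi47 and Gvin2, were followed in 12 RNA sequencing libraries made from a mouse line of ovarian cancer cells, HM1. The 8 genes were taken by name from 55416 gene identifiers shared by the cell and tumor tables. They were chosen by their levels in these tumors, with the knockdown change known. Their tumor values are therefore a description, with no p-value. Where members that passed a threshold in tumors are counted, the share of all genes stands beside the count and nothing is read from it. The 4 groups, of 3 libraries each, were tumors of HM1 with a short hairpin RNA against St3gal3, tumors of HM1 with a control hairpin, cultured HM1 cells with the St3gal3 hairpin, and cultured HM1 cells with the control hairpin. St3gal3 encodes a sialyltransferase, which caps glycans with sialic acid, and the series title places the comparison in anti-tumor immunity. The labels name neither the hairpin sequence nor the host strain, site or age of the tumors, and they do not tell whether the libraries of a group stand for different cultures or animals. The p-values thus rest on the spread among these libraries, which may be technical.

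Immunity-related GTPases, or IRG proteins, are made by mouse cells after exposure to interferon, above all interferon gamma, and defend against pathogens that live inside membrane-bound vacuoles. Effector IRG proteins, here Iigp1 (Irga6), Tgtp1 and Tgtp2 (Irgb6) and Ifi47 (Irgd), load onto the vacuole membrane and can break it. Regulator IRG proteins, here Irgm1, Irgm2 and Igtp (Irgm3), sit on the cell's own membranes and hold the effectors inactive there. Gvin2 belongs to the family of very large interferon-inducible GTPases, whose function is little known.

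The split between regulators and effectors can be read in the coding sequence of the first GTP-binding motif, where effectors carry a lysine and regulators a methionine. The motif was searched as glycine, any 4 residues, glycine, lysine or methionine, and serine in the longest reading frame of GENCODE M21 transcripts. The lines give its 8 codons, 5′ to 3′, with the codon for lysine or methionine in capitals.
Irgm1, Irgm2 and Igtp: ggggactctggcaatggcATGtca
Tgtp1 and Tgtp2: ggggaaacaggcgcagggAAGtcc
Ifi47: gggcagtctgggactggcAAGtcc
Gvin2: ggcctgcagagctcagggAAGtct
The 3 regulators shared all bases of this stretch and read methionine (ATG) at the codon shown in capitals. Tgtp1, Tgtp2, Ifi47 and Gvin2 read lysine (AAG), as did Iigp1, whose sequence is not printed. The reading frames of the 7 IRG genes were 407 to 423 codons long, and that of Gvin2 (Gm4070 in GENCODE M21) was 2427 codons long.

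The start of transcription was examined because interferon gamma and type I interferon act through DNA elements named GAS and ISRE. GAS was searched as TTCNNNGAA, which is its own reverse complement, and ISRE as GAAANNGAA on both strands, in RefSeq promoters of GRCm38.p6 that run from 250 bases before to 50 bases after each annotated start. Of the 8 genes, 6 had an entry, and Iigp1 and Gvin2 were not analysed here. The lines give the part of each promoter that holds the matches, 5′ to 3′ on the gene's own strand, with matches in capitals.
Irgm1, chr11:48871421-48871470, minus strand: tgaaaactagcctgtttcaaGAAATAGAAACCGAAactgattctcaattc
Irgm2, chr11:58214882-58214936, plus strand: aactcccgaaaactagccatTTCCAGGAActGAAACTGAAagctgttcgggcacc
Igtp, chr11:58199491-58199545, plus strand: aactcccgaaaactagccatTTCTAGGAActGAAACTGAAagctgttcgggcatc
Tgtp1, chr11:48992300-48992354, minus strand: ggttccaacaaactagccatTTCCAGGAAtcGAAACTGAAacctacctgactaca
Tgtp2, chr11:49064259-49064313, minus strand: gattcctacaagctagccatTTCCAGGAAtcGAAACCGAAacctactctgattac
Irgm2, Igtp, Tgtp1 and Tgtp2 each held a GAS match followed, after 2 bases, by an ISRE match, and these did not overlap. Irgm1 held 2 ISRE matches, from base -30 to -22 and from -24 to -16, which overlap by 3 bases, and no GAS match. The Ifi47 window held neither pattern. Among 32851 promoters of the same length, 8.30% held a GAS match, 8.56% an ISRE match and 1.07% both. The promoters of Irgm2 and Igtp shared a run of 61 identical bases, and those of Tgtp1 and Tgtp2 a run of 27. A match is a match of letters only, and no binding was measured.

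**Figure D1:**
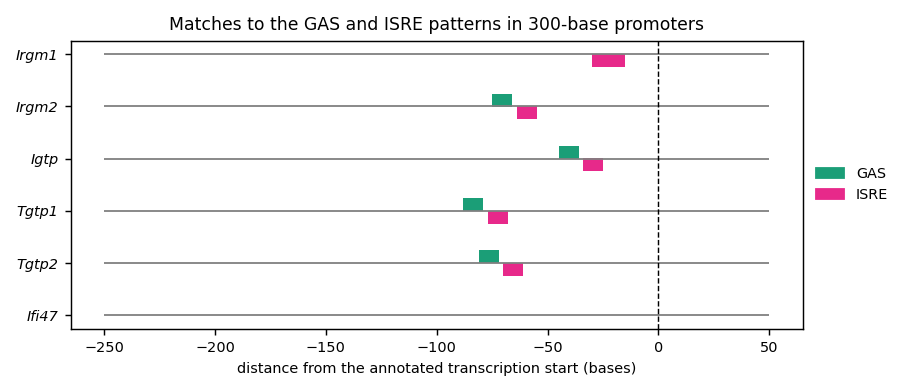
Position of GAS matches (green) and ISRE matches (pink) in the promoters of 6 genes, with the distance in bases from the annotated start (dashed line) on the horizontal axis. In Irgm2, Igtp, Tgtp1 and Tgtp2 a GAS match lies upstream of an ISRE match, from base -88 at the farthest, in Tgtp1, to base -26 at the nearest, in Igtp.

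The hairpin target was checked first. St3gal3 was at 1.52, 1.25 and 1.83 TPM (a share of all transcripts of a library, corrected for transcript length) in knockdown cells, against 9.59, 12.52 and 12.93 TPM in control cells (log2 change -2.32, SE 0.164, limma adjusted p = 0.00689). In tumors it was at 7.28, 5.87 and 5.76 TPM with the knockdown hairpin, against 14.00, 15.39 and 15.36 TPM with the control hairpin (log2 change -1.13, SE 0.110, limma adjusted p = 0.00954). Tumor libraries held 14046 to 14534 genes at 1 TPM or more, and culture libraries 12629 to 13145. Read depth cannot be recovered from TPM, and counting error is therefore not stated. Epithelial and ovarian markers summed to 2560 to 2826 TPM in knockdown tumors and 3227 to 3432 TPM in control tumors. In culture they summed to 4567 to 4654 TPM in knockdown cells and 4853 to 5052 TPM in control cells. Krt8, Krt18 and Krt19 held most of each sum. Of the 8 markers, 4 reached a mean of 1 TPM in each culture group and 5 in each tumor group. Krt7, Epcam and Pax8 stayed under that mean in every group, though 0 of 8 were at 0 in every library of a group. A gene was called when its limma adjusted p, by the Benjamini-Hochberg method over all genes tested, was under 0.05.

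Among regulators, Irgm1 (ENSMUSG00000046879), which in the mouse keeps IRG effectors off the cell's own organelles and is needed for defense by macrophages, was at 167, 165 and 104 TPM in knockdown tumors, against 19.5, 37.9 and 36.9 TPM in control tumors. The knockdown tumors lay above the control tumors without overlap, with knockdown tumor 3 lowest in its group and control tumor 1 lowest in its own. The log2 change was 2.20 (SE 0.328), and the group means, 145 ± 35.5 and 31.4 ± 10.3 TPM (SD, n = 3 each), differed by 4.62-fold. Irgm2 (ENSMUSG00000069874), a regulator found mainly at the Golgi apparatus, was at 82.8, 86.0 and 54.3 TPM in knockdown tumors, against 5.10, 18.0 and 16.9 TPM in control tumors (log2 change 2.53, SE 0.508). Igtp (ENSMUSG00000078853), a regulator of the endoplasmic reticulum and lipid droplets, was at 251, 255 and 159 TPM in knockdown tumors, against 7.87, 43.1 and 40.8 TPM in control tumors (log2 change 3.10, SE 0.700). For both genes the groups did not overlap and the same 2 libraries were lowest in their groups. Igtp had the highest mean level of the 8 genes in knockdown tumors, at 221 ± 54.5 TPM.

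Among effectors, Iigp1 (ENSMUSG00000054072), which is among the IRG proteins that coat the vacuole of Toxoplasma in mouse cells, was at 195, 227 and 118 TPM in knockdown tumors, against 7.28, 26.6 and 28.6 TPM in control tumors. The lowest knockdown tumor held 4.11 times the level of the highest control tumor, and the log2 change was 3.21 (SE 0.585). Tgtp1 (ENSMUSG00000078922), a vacuole-coating effector first described in T cells, was at 158, 166 and 78.6 TPM in knockdown tumors, against 4.96, 23.7 and 20.7 TPM in control tumors (log2 change 3.12, SE 0.654). Its near-copy Tgtp2 (ENSMUSG00000078921) was at 172, 185 and 96.6 TPM in knockdown tumors, against 8.45, 33.1 and 28.7 TPM in control tumors (log2 change 2.79, SE 0.581). These 3 genes were highest in knockdown tumor 2 and lowest in knockdown tumor 3. Ifi47 (ENSMUSG00000078920), the effector-class gene with the smallest tumor change of the 4, was at 112, 106 and 81.6 TPM in knockdown tumors, against 9.68, 26.0 and 26.3 TPM in control tumors (log2 change 2.33, SE 0.417). Its groups did not overlap either.

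Gvin2 (ENSMUSG00000078606) was at 69.4, 75.0 and 56.2 TPM in knockdown tumors, against 12.5, 17.9 and 15.7 TPM in control tumors. The knockdown libraries lay above the control libraries by at least 3.15-fold and the log2 change was 2.06 (SE 0.151), the smallest change and the smallest standard error of the 8 genes. Gvin2 was the 1 of 8 genes that was called in the tumor fit, where 160 of 14915 genes, or 1.07%, were called higher. All 8 genes had every knockdown tumor above every control tumor, as had 9.81% of the genes tested. Both counts come from the contrast by which the genes were chosen, and nothing is read from them.

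**Figure D2:**
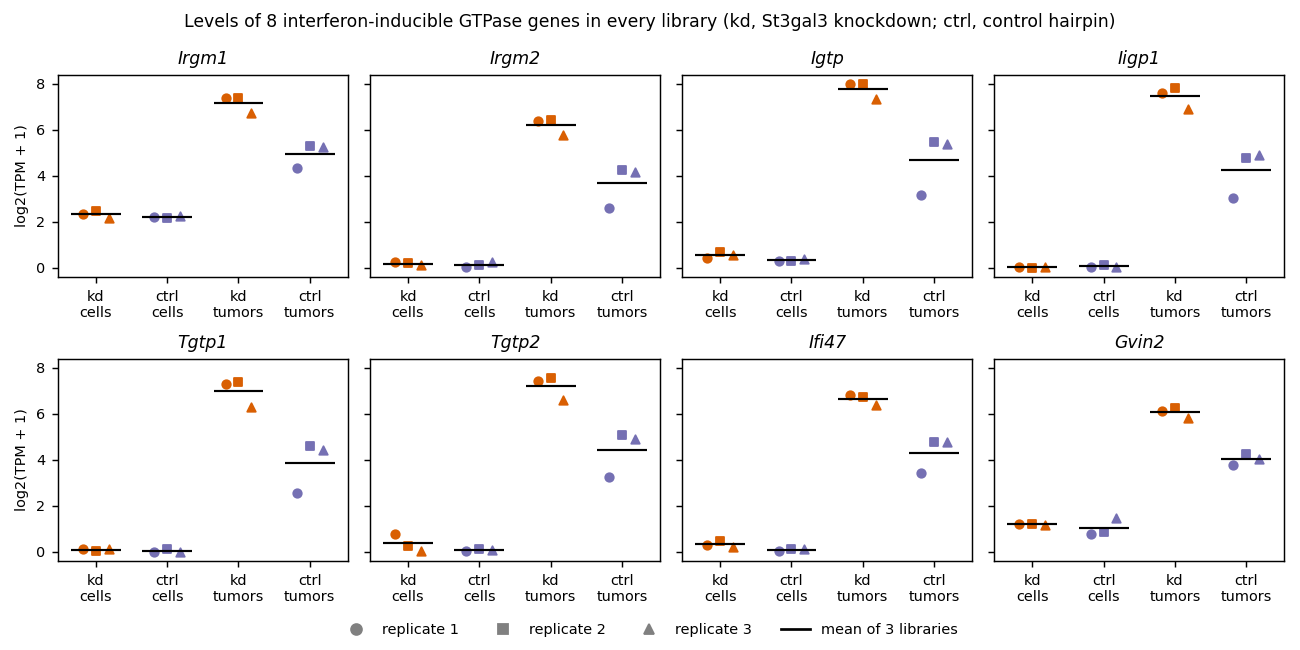
Level of each gene in every library as log2(TPM + 1), with knockdown left of control for cultured cells and for tumors, symbols for replicates and black bars for means of 3 libraries. In each of the 8 panels the 3 knockdown tumors lie above the 3 control tumors, with control tumor 1 (circle) lowest of its group and knockdown tumor 3 (triangle) lowest of its own.

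The libraries were ordered alike by the 8 genes. Control tumor 1 was the lowest control tumor for 8 of 8 genes, and knockdown tumor 3 the lowest knockdown tumor for 8 of 8. The highest knockdown tumor was number 2 for 6 genes and number 1 for 2 genes, and the highest control tumor was number 2 for 6 genes and number 3 for 2 genes. The log2 changes became smaller without control tumor 1, at 1.90 for Irgm1, 2.00 for Irgm2, 2.34 for Igtp, 2.61 for Iigp1, 2.47 for Tgtp1, 2.20 for Tgtp2, 1.88 for Ifi47 and 1.93 for Gvin2. Their standard errors also became smaller, from 0.135 for Gvin2 to 0.393 for Tgtp1, and 5 of 8 genes were then called: Irgm1, Irgm2, Igtp, Ifi47 and Gvin2. In that fit 1.14% of 14965 genes were called higher, and again nothing is read from the members' count. Without any other single tumor library 1 of 8 was called, and it was Gvin2 each time.

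**Figure D3:**
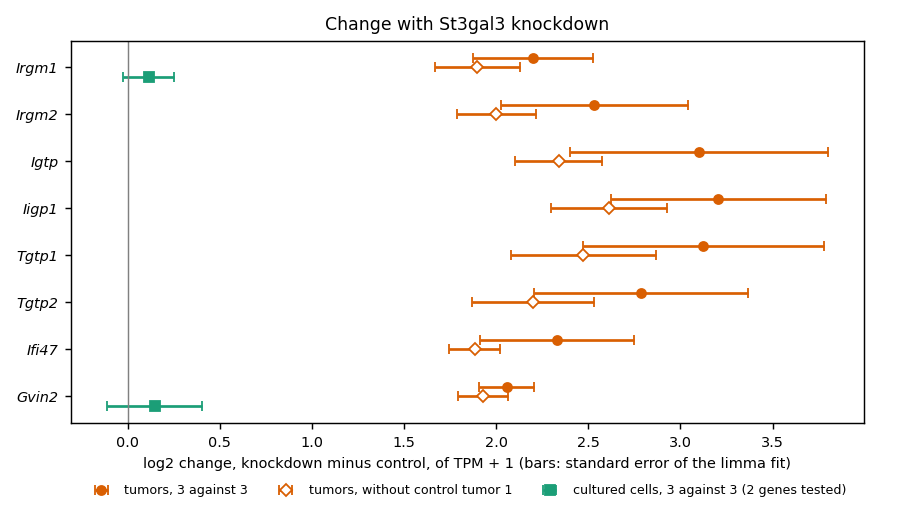
Log2 change of TPM + 1, knockdown minus control, for each gene in tumors (filled circles), in tumors without control tumor 1 (open diamonds) and, for Irgm1 and Gvin2, in cultured cells (squares), with bars for the standard error of the limma fit. The tumor changes run from 2.06 for Gvin2 to 3.21 for Iigp1, the same changes without control tumor 1 from 1.88 for Ifi47 to 2.61 for Iigp1, and the culture changes are 0.11 and 0.15.

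In cultured cells, where no host cells are present, the question was whether the knockdown alone goes with a change of these genes. Irgm1 was at 4.06, 4.57 and 3.55 TPM in knockdown cells, against 3.68, 3.47 and 3.84 TPM in control cells. The groups overlapped, and the log2 change of 0.11 (SE 0.138, 95% interval -0.21 to 0.44) was not called (limma adjusted p = 1.00). Gvin2 was at 1.30, 1.30 and 1.27 TPM in knockdown cells, against 0.71, 0.84 and 1.82 TPM in control cells. Control library 3 was above and control libraries 1 and 2 below all knockdown libraries, and the log2 change of 0.15 (SE 0.259, 95% interval -0.46 to 0.75) was not called (limma adjusted p = 1.00). These were the 2 of 8 genes that reached a mean of 1 TPM in a culture group and were tested. Of these 2, 0 were called, where 4 of 13492 genes, or 0.0296%, were called and 462 had an unadjusted p under 0.05. Likewise 0 of the 2 had every knockdown library above every control library, as had 5.25% of the genes tested.

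The other 6 genes stayed under 1 TPM in every culture library. Igtp was at 0.33, 0.62 and 0.47 TPM in knockdown cells, against 0.24, 0.24 and 0.32 TPM in control cells. Ifi47 was at 0.24, 0.39 and 0.17 TPM in knockdown cells, against 0.04, 0.08 and 0.08 TPM in control cells. For these 2 genes the knockdown libraries lay above the control libraries, as in 5.25% of the genes that reached 1 TPM. No such share was taken for genes under 1 TPM, and nothing is read from these 2. Tgtp2 was at 0.74, 0.21 and 0.03 TPM in knockdown cells, against 0.04, 0.09 and 0.07 TPM in control cells, so its groups overlapped. Irgm2 reached at most 0.19 TPM, Tgtp1 0.10 TPM and Iigp1 0.09 TPM in a culture library, and the groups overlapped or touched. Tested without the filter on low values, over 27626 genes, 0 of these 6 were called. In that fit the largest change after Tgtp2 was that of Ifi47 (log2 change 0.24, SE 0.0928, limma adjusted p = 0.925).

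The test of the difference between tissues asked whether the knockdown change was larger in tumors than in culture. The tumor change minus the culture change on the log2 scale was 3.26 (SE 0.601) for Iigp1, 3.08 (SE 0.678) for Tgtp1, 2.88 (SE 0.740) for Igtp, 2.51 (SE 0.633) for Tgtp2, 2.48 (SE 0.513) for Irgm2, 2.09 (SE 0.420) for Ifi47, 2.09 (SE 0.340) for Irgm1 and 1.91 (SE 0.268) for Gvin2. Of the 8 genes, Iigp1, Irgm1 and Gvin2 were called higher, where 0.572% of 15381 genes were. Since this difference contains the tumor contrast, it is a description too. These calls rest on 1 spread per gene taken from all 12 libraries, tumors and culture together. In such a fit the SE of the tumor change was 0.425 for Iigp1 and 0.241 for Irgm1, against 0.585 and 0.328 in tumors alone. For Gvin2 it was 0.189, against 0.151. All genes but Irgm1 and Gvin2 were under 1 TPM in every culture library and entered this fit through their tumor levels. On the log2(TPM + 1) scale their culture changes are held small, so their difference largely restates the tumor change. Without control tumor 1 all 8 were called, where 0.816% of 15444 genes were called higher, and without any other single library the count ran from 1 to 5. Culture libraries counted as much as tumor libraries here, since without control culture 1, 2 or 3, or knockdown culture 1 or 3, the count was 1, Gvin2 being the gene still called.

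Across tissues, the order of mean levels was knockdown tumors, then control tumors, then both culture groups for every one of the 8 genes. The lowest control tumor lay above the highest culture library for each gene, while the 2 culture groups overlapped or touched for 6 of the 8. The tables of cells and of tumors list different sets of genes, which makes this order a description. In bulk tumors, more cells that express these genes and more RNA per cell cannot be told apart.

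The make-up of the IRG pool differed between groups. The 7 IRG genes together held 1138, 1189 and 691 TPM in knockdown tumors, against 62.8, 208 and 199 TPM in control tumors, with means of 1006 ± 274 and 157 ± 81.4 TPM (SD, n = 3 each). In knockdown cells they held 5.67, 5.98 and 4.40 TPM, against 4.07, 4.15 and 4.52 TPM in control cells. Effectors made up 55.9 ± 1.67% of this pool in knockdown tumors and 51.1 ± 2.37% in control tumors, and the libraries did not overlap (54.2 to 57.5% against 48.4 to 52.5%). Single genes did not all follow their class. The shares of Iigp1 (17.8 against 12.9%) and Tgtp1 (13.1 against 9.88%) were higher in knockdown tumors. That of Tgtp2 was similar (14.9 against 14.6%) and that of Ifi47 lower (10.2 against 13.7%). Among regulators, Igtp had a higher share (22.1 against 17.9%). Its share was 12.5% in control tumor 1 but 20.7 and 20.5% in control tumors 2 and 3, near the 21.4 to 22.9% of knockdown tumors. Being tumor values of genes chosen by this contrast, these shares are a description. The effector share was 12.2 ± 6.35% in knockdown cells and 5.20 ± 3.05% in control cells, with overlap. Irgm1 was the main IRG transcript of cultured cells, with 76.2 ± 4.54% of the pool in knockdown cells and 86.3 ± 3.60% in control cells. In tumors it held 14.5 ± 0.615% with the knockdown and 22.6 ± 7.30% with the control hairpin, where control tumor 1 stood at 31.0% and the other two at 18.2 and 18.6%. The ratio of Igtp to Irgm2, which share a promoter run and 162 exon bases on the same strand, was 2.97 ± 0.0568 in knockdown tumors and 2.12 ± 0.497 in control tumors, with control tumor 1 lowest at 1.54.

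Several of these genes have near-copies, and the way reads were shared between them limits their single levels. The reading frames of Tgtp1 and Tgtp2 were 99.7% identical, with 4 of 1245 aligned positions different. Their ratio, Tgtp2 over Tgtp1, was 1.14 ± 0.0752 in knockdown tumors and 1.50 ± 0.179 in control tumors (SD, n = 3 each). Gvin2 and Gvin1 differed at 3 of 7281 aligned positions. Gvin1 was at 40.1, 49.6 and 38.1 TPM in knockdown tumors, against 6.79, 14.1 and 14.4 TPM in control tumors (log2 change 1.83, SE 0.287, limma adjusted p = 0.0497). Summed with Gvin1, an alternative chosen after the data were seen, Gvin2 had a log2 change of 2.00 (SE 0.204) and remained called. The regulators, by contrast, were 61.8 to 66.3% identical to each other. In GENCODE M21, listed exons of Ifi47 also overlap those of Olfr56 on the same strand, by 111 bases. Same-strand overlaps are 223 bases for Tgtp1 with Gm12185 and 259 bases for Gvin2 with Gm18852. Reads there cannot be told apart. On the opposite strand Gvin2 overlaps Gm20663 by 320 bases and Ifi47 overlaps Gm12188 by 106 bases.

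The remaining genes of the family and pathway were taken from lists chosen with earlier results of these data known. Of 14 other IRG and giant GTPase genes tested in tumors, 13 had positive changes. Among these, Gm4841, Gvin3, Gm5431, Gvin-ps1, Gvin-ps2 and Gvin-ps3 reached a mean of 1 TPM only in knockdown tumors. Their positive sign was thus fixed by the filter, and nothing is read from the count of positive changes. Gm4841 and Gvin3 are also among the genes called. Of the 14, 8 were called higher and 0 lower, beside 1.07% of all genes called higher. Their median log2 change was 1.13, where the median of all genes was -0.05. The IRG-family gene 9930111J21Rik2, which lies between Tgtp1 and Tgtp2, rose to 9.86, 9.92 and 8.45 TPM in knockdown tumors, against 3.39, 3.93 and 4.45 TPM in control tumors (log2 change 1.08, limma adjusted p = 0.0130). Gvin3 rose to 2.89, 3.55 and 3.15 TPM, against 0.67, 0.95 and 0.94 TPM in control tumors (1.18, limma adjusted p = 0.0160), and F830016B08Rik (1.53, limma adjusted p = 0.0160) and Gm4951 (2.24, limma adjusted p = 0.0170) rose as well. Irgq, a distant IRG relative, was at 6.07, 5.98 and 6.54 TPM in knockdown tumors, against 6.77, 6.37 and 6.32 TPM in control tumors (log2 change -0.06, SE 0.0927, limma adjusted p = 0.757). The count of 8 was 0 without knockdown tumor 1 or 2, 6 without knockdown tumor 3, 7 without control tumor 1 and 4 without control tumor 2 or 3, with medians from 1.05 to 1.19.

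Guanylate-binding proteins, which work with IRG proteins on the same vacuoles, all had positive tumor changes, with a median of 2.04. Gbp11 reached a mean of 1 TPM only in knockdown tumors, so its positive sign was fixed by the filter. Of 11 tested, 5 were called higher, beside 1.07% of all genes. Gbp9 rose to 39.9, 39.2 and 35.7 TPM in knockdown tumors, against 8.41, 13.6 and 14.1 TPM in control tumors (log2 change 1.62, limma adjusted p = 0.0139). Gbp10 (log2 change 2.03, limma adjusted p = 0.0168), Gbp7 (2.04, limma adjusted p = 0.0245) and Gbp11 (1.08, limma adjusted p = 0.0430) rose too. Members of this family are similar to each other, which leaves their single levels uncertain as well. The count of 5 was 0 without knockdown tumor 1 or 2 and 3 without knockdown tumor 3, while leaving out control tumor 1, 2 or 3 gave 10, 1 and 3 in turn.

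Of 12 interferon transcription factors and feedback inhibitors, 11 had positive changes and 3 were called higher, beside 1.07% of all genes. The median was 0.86, and 0 were called lower. Irf9, the DNA-binding partner of STAT proteins at ISRE sites, rose to 36.1, 36.5 and 32.4 TPM in knockdown tumors, against 17.6, 20.8 and 21.7 TPM in control tumors (log2 change 0.78, limma adjusted p = 0.0167). Socs1, an inhibitor of JAK kinases, and Usp18, an inhibitor of type I interferon signaling, also rose, Socs1 by 0.75 (limma adjusted p = 0.0329) and Usp18 by 0.93 (limma adjusted p = 0.0330) on the log2 scale. Irf1, a factor induced by interferon gamma, was at 228, 206 and 156 TPM in knockdown tumors, against 54.6, 96.4 and 88.9 TPM in control tumors and was not called (log2 change 1.31, limma adjusted p = 0.0855). The count of 3 was 0 without knockdown tumor 1 or 2 and 2 without knockdown tumor 3, while leaving out control tumor 1, 2 or 3 gave 5, 1 and 2 in turn.

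Of 8 tested interferon ligands, receptors and kinases, 0 were called, with a median of -0.04. Interferon gamma itself, Ifng, was at 2.61, 2.33 and 1.53 TPM in knockdown tumors, against 0.33, 0.91 and 0.47 TPM in control tumors, without overlap (log2 change 1.01, SE 0.218, limma adjusted p = 0.0799). Ifng reached a mean of 1 TPM only in knockdown tumors, so its positive sign was fixed by the filter. The other 7 had log2 changes of -0.09 to 0.15, the highest being that of Jak2 (SE 0.0960, limma adjusted p = 0.434), a kinase of the interferon gamma receptor. An autophagy list of 16 genes includes the conjugation machinery (Atg3, Atg5, Atg7, Atg12 and Atg16l1) that targets IRG proteins to vacuoles in mouse cells. Of the 16, 5 had positive changes, with a median of -0.06, and 1 was called higher, beside 1.07% of all genes. It was Trim21, a ubiquitin ligase and antibody receptor, at 17.8, 18.1 and 13.3 TPM in knockdown tumors, against 5.66, 7.58 and 8.39 TPM in control tumors (log2 change 1.08, limma adjusted p = 0.0328). The count of 1 was 0 without knockdown tumor 1 or 2 or control tumor 2 or 3. Map1lc3b, which encodes a ubiquitin-like protein of autophagosomes, had a log2 change of -0.29 (limma adjusted p = 0.0707). In culture 0 genes of these 5 lists were called, and 0 guanylate-binding protein genes and 1 other IRG gene, Irgq, reached the level needed for the test.

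**Figure D4:**
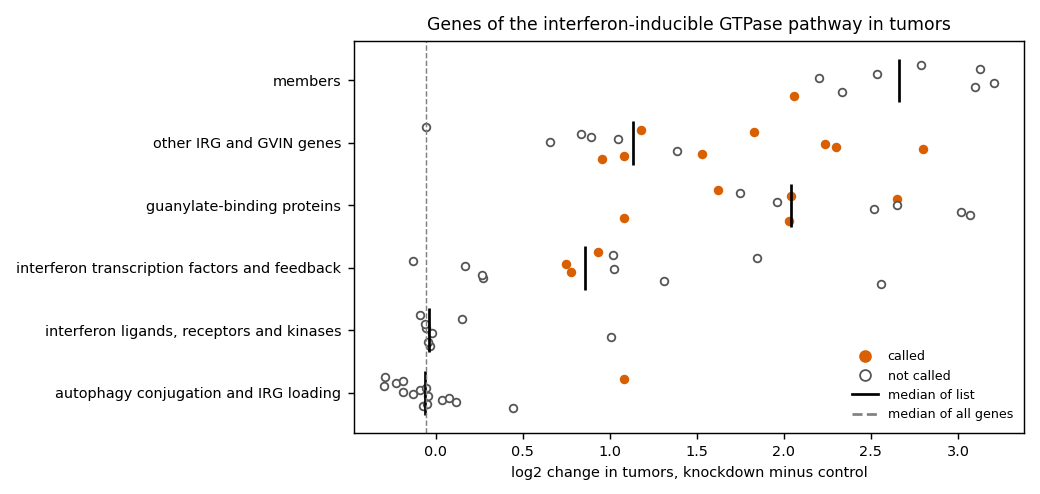
Log2 change in tumors, knockdown minus control, of the 8 genes (named members) and of 5 pathway lists, with filled points for called genes, open points for genes not called, a black line at each list's median and a dashed line at the median of all genes. The medians are 2.66 for the 8 genes, 1.13 for other IRG and giant GTPase genes, 2.04 for guanylate-binding proteins, 0.86 for transcription factors and feedback, -0.04 for ligands, receptors and kinases and -0.06 for autophagy.

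The IRG genes of chromosome 11 lie in 2 clusters, and their neighbors were examined in RefSeq order (GRCm38.p6), a choice made after the data were seen. Between Irgm1 and Ifi47 lie 5 other protein-coding genes, which had log2 changes in tumors of 0.66 to 1.38. Of these, 2 were called, 9930111J21Rik1 and 9930111J21Rik2, beside 1.07% of all genes called higher. Both of them, with Gm5431 and Gm12185, belong to the other IRG genes already counted above, as does Gm12250, and add nothing to that count. The remaining gene of the 5, Psme2b, is named like a proteasome activator gene and was at 0.77 to 2.62 TPM in knockdown tumors, against 0.32 to 0.47 TPM in control tumors. Psme2b and Gm5431 reached a mean of 1 TPM only in knockdown tumors, so their positive sign was fixed by the filter. Next to Igtp, Gm12250, a further IRG gene, was at 34.1, 33.7 and 26.3 TPM in knockdown tumors, against 1.60, 5.29 and 5.04 TPM in control tumors (log2 change 2.80, SE 0.365, limma adjusted p = 0.0325). Of the 5 genes on each side of the 2 clusters, 12 were tested, and 1 was called, Olfr56 (log2 change 1.80, SE 0.300, limma adjusted p = 0.0494). The other 11 had log2 changes between -0.14 and 0.28, among them Trim7, the nearest tested gene before Irgm1 (-0.06), and Mrpl22, the nearest before Gm12250 (0.21). Olfr56 is the gene whose listed exon overlaps Ifi47, as given above.

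**Figure D5:**
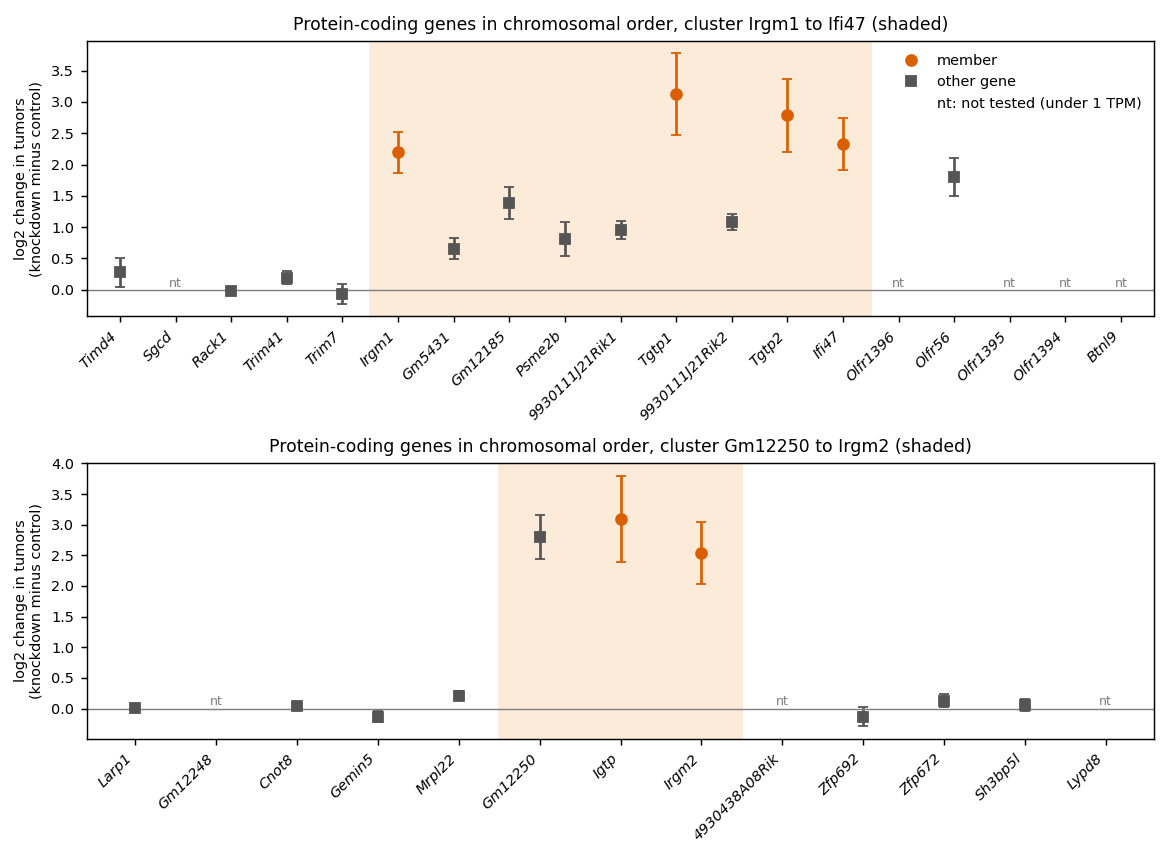
Log2 change in tumors, knockdown minus control, of protein-coding genes in chromosomal order around the 2 clusters (shaded), with circles for the 6 members on chromosome 11, squares for other genes, bars for the standard error and nt for genes that were not tested. Inside the clusters all values are above 0.5, and outside them all but Olfr56 lie between -0.14 and 0.28. Squares inside the clusters include the further IRG genes Gm5431, Gm12185, 9930111J21Rik1, 9930111J21Rik2 and Gm12250.

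The tumor pattern most like that of the 8 genes was found by Pearson's r with their mean standardized profile over the 6 tumor libraries, among 11539 other genes. The 8 genes themselves had r of 0.975 for Gvin2 to 0.999 for Iigp1. Each of them is part of that mean profile, so a high r is built in for them. The 5 most alike were Olfr56 (r = 0.999), Ido1 (0.999), H2-T22 (0.998), Rnf135 (0.996) and Gbp2b (0.996). Ido1, which encodes an enzyme that breaks down tryptophan, was at 75.2, 69.7 and 46.8 TPM in knockdown tumors, against 4.45, 14.1 and 14.7 TPM in control tumors. H2-T22, a class I-like histocompatibility gene, was at 249, 239 and 202 TPM in knockdown tumors, against 88.6, 128 and 134 TPM in control tumors. Both followed the order seen in the 8 genes, with control tumor 1 and knockdown tumor 3 lowest in their groups. Over the 6 culture libraries r was 0.51 for Ido1, 0.80 for H2-T22, 0.53 for Rnf135 and -0.26 for Gbp2b, and Olfr56 was listed at 0. With 6 libraries in 2 groups that differ, such values describe the libraries and carry no test.

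The summed levels of some host-cell markers differed between the tumor groups without overlap. The 9 T and NK cell markers summed to 129, 163 and 115 TPM in knockdown tumors, against 40.7, 52.1 and 58.8 TPM in control tumors, and 9 of 9 had positive changes. Of these 9, 2 were called higher, Gzmb and Klrd1, beside 1.07% of all genes tested. The count was 0 without knockdown tumor 1, and 1 or 2 without any other single library. The 4 mast cell markers summed to 71.0, 64.0 and 55.8 TPM in knockdown tumors, against 28.4, 19.5 and 31.1 TPM in control tumors. Of these 4, 3 were called higher, beside the same 1.07%. The fourth, Kit, had a log2 change of -0.26. The count of 3 was 0 without knockdown tumor 1 or 2, 3 without knockdown tumor 3, and 2 without any 1 control tumor. The 5 pan-leukocyte markers summed to 643, 558 and 634 TPM in knockdown tumors, against 379, 492 and 471 TPM in control tumors, with 0 of 5 called. Control tumor 1 had the lowest T and NK cell and pan-leukocyte sums of all 6 tumors, and it was the library lowest for the 8 genes. Among knockdown tumors the pan-leukocyte order differed, since number 2, highest for 6 of 8 genes, had the lowest pan-leukocyte sum of its group. The T and NK cell sum of that group was highest in number 2 and lowest in number 3, the library lowest for the 8 genes. The summed level of the 8 genes divided by the pan-leukocyte sum was 1.88, 2.27 and 1.18 in knockdown tumors, against 0.199, 0.460 and 0.455 in control tumors. The ratio did not overlap between the groups, with knockdown tumor 3 and control tumor 1 lowest in their own.

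Other marker sums overlapped or went the other way. The 8 macrophage markers summed to 1118, 822 and 967 TPM in knockdown tumors, against 648, 965 and 933 TPM in control tumors, with 0 of 8 called. Neutrophil markers summed to 173 to 223 TPM in knockdown tumors, against 117 to 329 TPM in control tumors. Fibroblast markers summed to 506 to 806 TPM in knockdown tumors, against 749 to 970 TPM in control tumors, and endothelial markers to 33.2 to 48.9 TPM, against 48.5 to 70.4 TPM. B cell markers summed to 0.73 to 2.48 TPM in knockdown tumors, against 0.71 to 2.15 TPM in control tumors, and erythroid markers to 37.7 to 88.0 TPM, against 79.1 to 107 TPM. Skeletal muscle markers summed to 70.6, 11.8 and 54.7 TPM in knockdown tumors, against 2.48, 12.1 and 2.62 TPM in control tumors. Knockdown tumor 2 had a muscle sum within the control range. With it as the sole knockdown library, the log2 changes of the 8 genes were 2.23 to 3.59, values from 1 library against 3 given with no test. It was also the highest knockdown tumor for 6 of the 8 genes, so nothing is read from these changes. The part of any of these cell types in the levels of the 8 genes was not tested. In culture the T and NK cell sum was at most 0.12 TPM. Adgre1 and Cd3e were listed at 0 in all 6 culture libraries, and Ptprc at 0 in 5 of 6. Other markers were present there. Macrophage markers summed to 20.98 to 22 TPM in knockdown cells, against 16.24 to 20.06 TPM in control cells. Pan-leukocyte markers summed to 6.15 to 6.51 TPM, against 6.91 to 8.84 TPM. Cd68 had means of 17.05 and 14.08 TPM in knockdown and control cells, and Cd53 of 4.27 and 5.69 TPM.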

How the data were processed

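The authors deposited 1 table per sample with gene identifiers, names, lengths and TPM values. Per the submitters' processing notes, the tools were fastp, HISAT and RSEM, on build GRCm39, without versions or settings. Whether counting used strand is not stated there. RSEM divides reads among similar transcripts by estimation, which makes single levels of near-identical genes uncertain. Groups and replicate numbers came from the sample titles. The members, gene lists, tests and most alternatives were chosen with earlier results of these data known.

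Values were analysed as log2(TPM + 1) with limma 3.58.1 in R 4.3.3 (trended, robust empirical Bayes, two-sided) over genes whose mean reached 1 TPM in some group. This scale understates changes of low genes. Fits used the 6 libraries of a tissue, or 12 for the difference, with 1 spread per gene over all libraries of a fit. Every adjusted p comes from limma. No correction or extra scaling was applied to the TPM. The procedure was tested on simulated data. No count was available, so no count test was run.

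The text names the 8 genes, St3gal3, up to 4 genes per list by smallest tumor p, and the 5 genes most alike with a mean of at least 2 TPM and no predicted or clone name. Irgq, Gvin1, Gm12250 and the neighbors were named after their values were seen. Tables were read with pandas 2.3.3 in Python 3.11.15, and figures were drawn with matplotlib 3.10.9. Sequences are those of RefSeq (GRCm38.p6) and GENCODE M21, not of the authors' build, and no gene coordinates of that build are given.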

Additional observations from a re-analysis of the deposited data

Results flagged for a closer look

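For 3 genes the knockdown change differed between tumors and culture in the fit over all 12 libraries, whose spread is pooled over both tissues. The tumor change minus the culture change was 3.26 on the log2 scale for Iigp1, 2.09 for Irgm1 and 1.91 for Gvin2. In all 3 the tumor changes were the larger, at 3.21, 2.20 and 2.06. Iigp1 was under 1 TPM in every culture library, so its difference largely restates its tumor change. The difference contains the contrast by which the genes were chosen, so it is a description. Gvin2 was called in this fit whichever single library was left out. With a pseudocount of 0.1 Irgm1 was the 1 gene still called, and with a replicate block 0 of 8 were. Iigp1 was not called without any 1 of the 6 culture libraries or without knockdown tumor 1 or 2. Irgm1 was not called without knockdown tumor 1 or any culture library but knockdown culture 2.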

How the results depend on the processing

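No direction of a member tested in the main fit changed in any alternative run. In culture this covers Irgm1 and Gvin2 only, since the directions of the other genes were not compared there. Tumor log2 changes ranged from 1.88 (Ifi47) to 3.59 (Iigp1). Of 8 genes, 1 was called in tumors with all libraries, against 2 with a pseudocount of 0.1, with 1 TPM required in 3 libraries or with median-of-ratios scaling, 3 with quantile normalization, 8 with all 4 groups in 1 fit, and 1 to 5 without single libraries. The fit of all 4 groups pools the spread of tumors and culture. For the difference, 3 were called, against 1 (Irgm1) with a pseudocount of 0.1, 5 with 1 TPM in 3 libraries or median-of-ratios scaling, and 1 to 8 without single libraries. In culture 0 members were called in any alternative, of 8 tested without a filter or with all 4 groups in 1 fit, and of 2 otherwise.

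Among all genes in culture, 4 were called, against 11 with a pseudocount of 0.1, 8 with 1 TPM in 3 libraries, 8 with all 4 groups in 1 fit, and 7 to 15 without single libraries. In tumors 225 were called, against 82 without a filter, 599 with all 4 groups in 1 fit, 72 without knockdown tumors 1 and 3 (the lone knockdown library assumed to vary like the controls), and 38 to 229 without single libraries. For the difference 116 were called, against 26 with a pseudocount of 0.1, 200 with median-of-ratios scaling, 183 with quantile normalization, and 67 to 164 without single libraries. Median-of-ratios scaling moved the median difference of all genes from -0.06 to 0.05. The cause of these shifts was not tested.

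Replicate numbers did not pair the samples, since deviations of same-numbered libraries correlated at -0.16 to 0.05. With a replicate block, 0 of 8 genes and 2 genes in all were called in tumors, 0 and 0 for the difference, and 0 of 2 and 4 in culture. Unknown depth limits all values under 1 TPM.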
